A study of Homo sapiens with 24 samples.

Results

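The sites described here are peaks of open chromatin that T47D cells had in complete medium, that were less open after hormone starvation, and that 1 h of estradiol left near the starved level. They numbered 627 of the 189403 peaks of the series. A peak was taken when it averaged at least 4 CPM (its count per 1000000 counts of the library in peaks) in complete-medium vehicle cells. It also had to show a log2 ratio of at least 1 of complete to starved vehicle cells with 0.5 CPM added to both means, all 4 complete vehicle libraries above all 4 starved vehicle libraries, and a log2 ratio of estradiol to vehicle in starved cells within 0.25 of 0. Of the 1927 peaks that met the conditions on the media, the 627 unrestored sites were 32.5%. Another 433 (22.5%) had an estradiol ratio of at least 1 and are called restored sites below, 790 (41%) lay between these limits, and 77 (4%) were lower by 0.25 or more with estradiol. The sites were thus chosen by the accessibility measured in the complete vehicle, starved estradiol and starved vehicle libraries, and values of those libraries are given as a description.

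T47D, a long-established luminal line from a human breast cancer, carries the estrogen receptor. Its accessible chromatin was profiled by ATAC-seq, where Tn5 transposase cuts and tags DNA that is open. Complete-medium cells, with 500000 cells seeded per sample, spent 1 day in RPMI medium with ordinary fetal bovine serum and then received fulvestrant, raloxifene or tamoxifen at 100 nM, or vehicle (0.1% DMSO), for 1 h. Starved cells, with 330000 seeded per sample, spent 3 days in phenol red free medium with charcoal-stripped serum and then received 1 nM beta estradiol or the same vehicle for 1 h. Each of the 6 groups had 4 libraries. Starvation differed from complete growth in the make-up of medium and serum, hormones included, in days in the medium and in seeding number. These cannot be told apart as sources of a difference between the media. Estradiol was given for 1 h only, and longer exposure was not tested. For 2 complete vehicle libraries (replicates 3 and 4) labels conflict, with fulvestrant under treatment and DMSO in both title and description. They are used as vehicle by title, and without them the same rule gave 827 sites, 528 of them among the 627. Whether the libraries of a group came from separate cultures is not stated, and a p-value here speaks only of the spread among libraries, which may be technical.

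Estradiol binds the estrogen receptor, a nuclear receptor that settles on enhancers carrying its response element and recruits coactivators that keep the chromatin open. Ordinary serum also supplies glucocorticoids, retinoids, thyroid hormone, lipids and growth factors, many of which charcoal removes, and phenol red is itself a weak estrogen. Among its antagonists, tamoxifen has a triphenylethylene core and raloxifene a benzothiophene core, and both are selective modulators that compete with estradiol, whereas fulvestrant is a steroidal antagonist that leads to degradation of the receptor.

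The sites fall mostly outside promoters, but 12 of them overlapped a RefSeq promoter window (250 bases before to 50 after a gene start), of which 7 belong to protein-coding genes. In such a window an unrestored site can be read against a gene start. The windows of 5 of these genes are printed, chosen after values were seen, and those of SARM1 and HYAL1 are not. Printed are PDZK1 (a scaffold protein induced by estrogen in breast cancer cells), UHRF1 (a factor that keeps DNA methylation through replication) and SPATA12 (a spermatogenesis-associated gene). The other printed windows are those of TNK2 (a non-receptor tyrosine kinase) and CXCL8 (the chemokine interleukin-8). Each is given 5′ to 3′ on the gene's strand of GRCh38.p14, with the bases inside the peak in capitals. Since the numbering base of the deposited peak starts is unstated, a peak's edge may be off by a single base.
PDZK1, chr1:145707351-145707650, minus strand: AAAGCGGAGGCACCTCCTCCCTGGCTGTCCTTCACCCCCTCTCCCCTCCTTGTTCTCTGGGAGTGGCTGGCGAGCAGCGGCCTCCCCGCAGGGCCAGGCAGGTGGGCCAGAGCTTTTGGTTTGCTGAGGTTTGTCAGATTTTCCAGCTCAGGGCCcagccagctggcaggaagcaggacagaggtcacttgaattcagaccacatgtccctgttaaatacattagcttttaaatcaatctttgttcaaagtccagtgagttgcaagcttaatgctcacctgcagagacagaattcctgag
UHRF1, chr19:4909251-4909550, plus strand: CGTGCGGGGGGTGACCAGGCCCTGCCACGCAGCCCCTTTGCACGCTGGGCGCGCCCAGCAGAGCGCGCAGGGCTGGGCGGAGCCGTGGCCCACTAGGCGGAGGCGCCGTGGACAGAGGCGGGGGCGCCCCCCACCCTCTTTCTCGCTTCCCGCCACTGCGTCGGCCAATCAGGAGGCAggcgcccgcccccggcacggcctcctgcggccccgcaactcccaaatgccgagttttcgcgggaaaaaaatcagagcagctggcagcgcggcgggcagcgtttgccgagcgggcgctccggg
SPATA12, chr3:57060414-57060713, plus strand: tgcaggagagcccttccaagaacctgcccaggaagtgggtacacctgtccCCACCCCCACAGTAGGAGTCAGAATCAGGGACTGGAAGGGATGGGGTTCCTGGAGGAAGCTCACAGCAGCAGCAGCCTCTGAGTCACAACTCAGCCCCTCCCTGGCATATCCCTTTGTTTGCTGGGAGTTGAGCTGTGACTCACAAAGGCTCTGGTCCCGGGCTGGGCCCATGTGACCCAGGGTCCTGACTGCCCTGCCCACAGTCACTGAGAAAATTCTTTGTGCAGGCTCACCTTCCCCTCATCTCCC
TNK2, chr3:195897242-195897541, minus strand: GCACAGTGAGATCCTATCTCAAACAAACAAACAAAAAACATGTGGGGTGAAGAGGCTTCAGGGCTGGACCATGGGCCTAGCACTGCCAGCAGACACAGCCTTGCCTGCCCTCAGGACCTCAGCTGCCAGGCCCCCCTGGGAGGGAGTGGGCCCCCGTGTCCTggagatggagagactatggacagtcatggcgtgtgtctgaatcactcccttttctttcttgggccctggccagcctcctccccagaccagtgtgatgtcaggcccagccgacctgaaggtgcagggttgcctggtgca
CXCL8, chr4:73740319-73740618, plus strand: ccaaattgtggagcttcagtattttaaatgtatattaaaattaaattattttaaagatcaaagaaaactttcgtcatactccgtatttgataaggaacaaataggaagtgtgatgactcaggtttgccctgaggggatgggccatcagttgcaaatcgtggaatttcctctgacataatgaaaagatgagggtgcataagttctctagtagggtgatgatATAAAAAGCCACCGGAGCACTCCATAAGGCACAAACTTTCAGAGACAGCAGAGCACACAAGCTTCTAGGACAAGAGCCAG

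Within these letters AGGTCA, part of the estrogen response element, occurred in the PDZK1 window, 69 bases before the start and outside the peak. In the same window AGAACA, part of the glucocorticoid response element, occurred inside the peak on the other strand, 200 bases before the start. Full response elements were not searched for, so neither match tells which receptor could bind. The AP-1 motif TGANTCA occurred in the SPATA12 window at 121 and 64 bases before the start, both inside the peak. It also occurred in the TNK2 window at 51 and in the CXCL8 window at 137 bases before the start, both outside the peak. UHRF1 held the SP1 motif GGGCGG and the NF-Y motif CCAAT inside its peak. Both strands were searched in all 12 windows, and the motifs do not overlap each other at these positions. Of the 12, 4 held AP-1, against 7.9% of 27305 RefSeq promoters and 4.31% of the 10615 promoters under a peak of at least 4 CPM. SP1 was in 3 of the 12, against 43.8% and 73.3%, and the E-box CAGCTG in 7, against 17.8% and 16.6%. With 12 windows these shares describe letters only, and say nothing of the factors.

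Libraries held 434598 to 12140005 counts in peaks, the lowest being fulvestrant replicate 4 and the next the starved vehicle replicate 3 (2422981). In fulvestrant replicate 4 the median count per site was 3 and 91 of the 627 sites had no count, so a value there is coarse: 3 counts, the limit that a count of 0 allows, equal 6.9 CPM in that library and 1.24 CPM in starved vehicle replicate 3. Such limits cover counting error only. In starved and complete vehicle cells, all 10 luminal marker genes had a peak in or within 2 kb of the gene, the highest per gene at 23.4 to 62.2 CPM. Of the basal and mesenchymal genes 6 of 7 had one (0 to 38.7 CPM, none at KRT14), and of the blood genes 5 of 6 (0 to 34.7 CPM, none at HBB). None of the 627 sites lay in or within 2 kb of these marker genes, and the part of other cell types in the results was not tested.

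As a share of counts in peaks, the 627 sites stood near complete vehicle with each antagonist and near starved vehicle with estradiol. They took 0.617 ± 0.0672% of counts with fulvestrant, 0.647 ± 0.00909% with raloxifene, 0.637 ± 0.017% with tamoxifen and 0.67 ± 0.00716% with vehicle in complete medium, against 0.27 ± 0.00845% with estradiol and 0.259 ± 0.00623% with vehicle in starved medium (SD, n = 4 each). The 12 antagonist libraries took no part in the choice of sites, and all 12 lay above all 8 starved libraries. The lowest of them was the shallow fulvestrant replicate 4 at 0.522% (95% Wilson interval 0.501 to 0.543%, counting error only), while the other 15 complete-medium libraries ran from 0.621 to 0.68% and the starved ones from 0.253 to 0.279%. All raloxifene (0.634 to 0.655%) and tamoxifen libraries (0.622 to 0.661%) lay below all complete vehicle libraries (0.665 to 0.68%). Fulvestrant libraries ran from 0.522 to 0.67%. A high value in complete vehicle was a condition of the choice, so this order is not a result. In a bulk profile, fewer cells with an open site and less access per cell cannot be told apart.

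**Figure D1:**
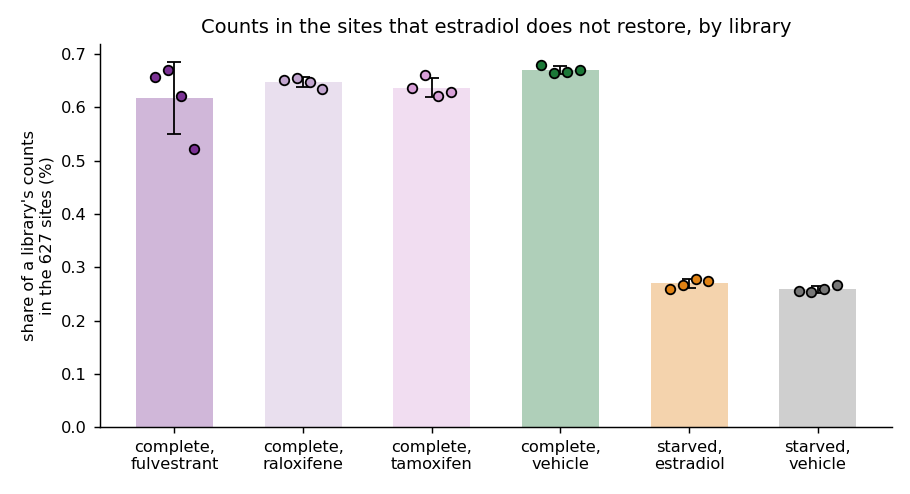
Share of each library's counts in peaks (%) that fell in the 627 unrestored sites, by group; bars are means of 4 libraries, whiskers 1 SD, points the libraries. All complete-medium groups average 0.617 to 0.67%, and both starved groups 0.27% or less.

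Per site, the median of group means was 7.34 CPM with fulvestrant, 7.27 with raloxifene, 7.07 with tamoxifen and 7.62 with vehicle in complete medium, against 3.04 CPM with estradiol and 2.89 with vehicle in starved medium. Few sites were closed by starvation in absolute terms: 4 of the 627 averaged under 1 CPM with estradiol and 7 with starved vehicle, while 177 averaged under 2 CPM with starved vehicle. The restored sites started lower in starved vehicle cells (median 2.42 CPM, 64 of 433 under 1 CPM) and reached a median of 8.31 CPM with estradiol. Their level in complete vehicle cells was 9.93 CPM. Restored sites were chosen by a ratio over these same starved vehicle libraries, which favours low values there.

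The ratio of complete to starved vehicle cells was smaller in the unrestored sites than in the restored ones, with a median log2 of 1.19 (range 1 to 2.65) and 1.78 (range 1.01 to 3.72). The rule set the lower limit of 1 for both, and no test was made of this difference. Restored sites also had to reach an estradiol ratio over the same starved vehicle libraries, and low values there raise both ratios. The difference is thus partly set by the choice. The ratio of estradiol to vehicle in starved cells had a median of 0.054 in the unrestored sites, with 398 above 0 and 229 below. Just inside the limit on the media were peaks near TNFRSF10D (log2 1.001), P2RY2 (1.001) and NSUN2 (1.001), and just outside it peaks near BMP4 (0.999), RPS14 (0.999) and TMC3 (0.999). Just inside the limit on estradiol were peaks near GULP1 (0.2497), FANCC (0.2495) and TSPAN4 (-0.249), and just outside it peaks near AZGP1 (0.2503), FAXDC2 (0.2503) and UBR2 (-0.2509). The limit on estradiol therefore runs through a continuous spread of values.

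**Figure D2:**
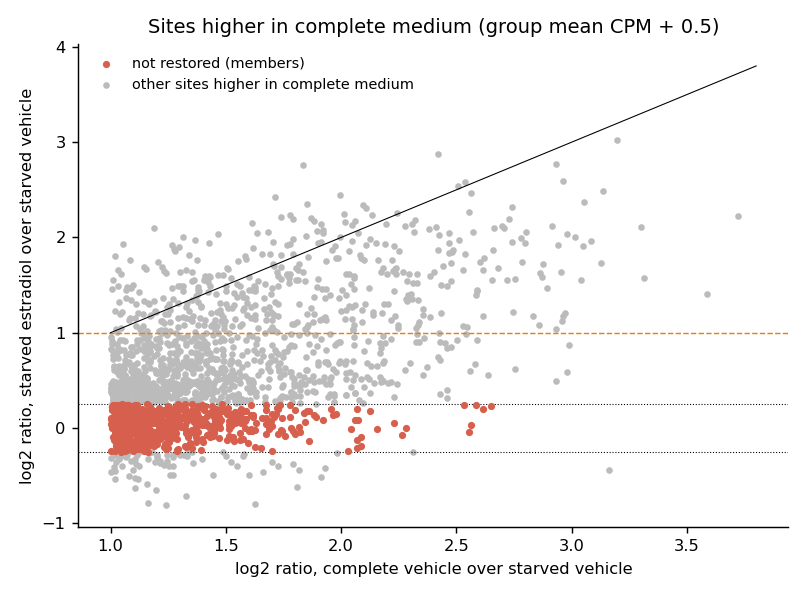
Each point is one of the 1927 peaks that met the conditions on the media; x, log2 ratio of complete vehicle over starved vehicle, y, log2 ratio of starved estradiol over starved vehicle, both from group means with 0.5 CPM added. The 627 unrestored sites (red) fill the band within 0.25 of 0 (dotted), the dashed line marks the limit of 1 for restored sites, and the solid line marks equal ratios.

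Values near these were read in libraries that had not chosen the peaks. The rule was applied to 3 of the 4 replicate numbers and the chosen peaks were read in the number left out. The median log2 ratio of complete to starved vehicle was 1.17, 1.16, 1.00 and 1.11 with replicates 1 to 4 left out, over 574, 585, 773 and 662 chosen peaks. The median log2 ratio of estradiol to starved vehicle was 0.0082, 0.079, -0.038 and 0.051. A ratio with estradiol of at least 1 in the left-out libraries was found for 2.44, 3.42, 8.8 and 3.02% of the chosen peaks, the highest share where the shallow starved vehicle replicate 3 was read.

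A peak inside the interval of WT1, a zinc-finger transcription factor gene (chromosome 11, 32420957 to 32421415, hg38), was both among the highest and among the most strongly different sites. It stood at 72.6, 73.8, 65.9 and 59.8 CPM with fulvestrant, 70.9, 63.8, 69.9 and 66.5 with raloxifene, 61.9, 73.2, 74 and 71.7 with tamoxifen and 70.9, 68.5, 64.9 and 66.3 with vehicle in complete medium. In starved medium it stood at 11.3, 12.4, 10 and 9.57 CPM with estradiol and 12.1, 13.3, 10.7 and 8.29 with vehicle. No complete-medium library came near a starved one, and the estradiol and starved vehicle libraries overlapped. The mean of the 3 antagonists exceeded starved vehicle by 2.67 on the log2 scale (SE 0.111, edgeR adjusted p = 5.44e-33). The starved vehicle libraries took part in the choice of sites, and this site was named for its large media ratio. This p-value, and those of antagonists over starved vehicle at single sites below, are therefore descriptions only. Of 8 other tested peaks within 50 kb, edgeR called 4 higher in complete medium and none with estradiol. The annotation used gives gene intervals only, so whether a peak lies in an exon or an intron was not resolved.

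Several of the largest ratios belonged to peaks of low level in starved cells, unlike WT1 and the site near CDKN3 described below. The peak 445 kb from DCN (the collagen-binding proteoglycan decorin; chromosome 12, 91627321 to 91627600) stood at 5.77, 3.62, 4.59 and 2.3 CPM with fulvestrant, 4.7, 6.08, 4.46 and 4.12 with raloxifene, 4.71, 5.95, 4.27 and 3.14 with tamoxifen and 4.99, 5.02, 6.45 and 4.64 with vehicle in complete medium, against 0.24, 0.412, 0.906 and 0.756 with estradiol and 0.555, 0.357, 0.413 and 0.353 with vehicle in starved medium. The peak inside FBN1, the gene of the matrix protein fibrillin-1 (chromosome 15, 48483805 to 48484033), averaged 4.99 ± 1.83 CPM with fulvestrant, 6.74 ± 1.14 with raloxifene, 6.51 ± 0.709 with tamoxifen and 5.98 ± 0.91 with complete vehicle, against 0.617 ± 0.314 with estradiol and 0.596 ± 0.489 with starved vehicle (SD, n = 4 each). At both sites all complete-medium libraries lay above all starved ones, and one starved vehicle library had no count in FBN1. The peak inside CHRM3, the gene of a muscarinic acetylcholine receptor (chromosome 1, 239456771 to 239457137), averaged 8.32, 10.9, 9.16 and 10.2 CPM with fulvestrant, raloxifene, tamoxifen and vehicle in complete medium, against 1.6 with estradiol and 1.29 with starved vehicle. Its fulvestrant replicate 4 read 2.3 CPM, which is a single count. Other sites of this kind lay 22.3 kb from the calmodulin gene CALM2 (10.9 ± 1.53 CPM with complete vehicle, 1.64 ± 0.324 with estradiol, 1.36 ± 0.609 with starved vehicle), 389 kb from the connexin gene GJA1 (11.2, 1.81 and 1.93 CPM) and 185 kb from the transcription factor gene SOX2 (11.9, 2.25 and 2.15 CPM).

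The sites of highest level kept much of their signal in starved cells in several cases. The peak inside PGS1, which encodes an enzyme of cardiolipin synthesis (chromosome 17, 78421501 to 78421744), averaged 65.5 ± 19.6 CPM with fulvestrant, 66.9 ± 3.6 with raloxifene, 68.2 ± 10.4 with tamoxifen and 70.3 ± 5.13 with complete vehicle, against 38.4 ± 3.56 with estradiol and 34.1 ± 1.84 with starved vehicle. A peak 151 kb from TBL1XR1, a subunit of nuclear corepressor complexes, averaged 44.9 ± 15, 54.8 ± 4.49 and 56.9 ± 5.35 CPM with fulvestrant, raloxifene and tamoxifen and 62.4 ± 7.02 with complete vehicle, against 24.1 ± 4.12 with estradiol and 21.7 ± 3.38 with starved vehicle. A second site 162 kb from the same gene averaged 6.7 CPM with complete vehicle, 1.1 with estradiol and 1.12 with starved vehicle. A peak 145 kb from the phosphatase gene CDKN3 stood at 59.3, 56.2, 42.2 and 6.9 CPM with fulvestrant, the last being 3 counts of the shallow library, and averaged 51 ± 3.88 CPM with complete vehicle, 10.1 ± 1.02 with estradiol and 10.1 ± 1.61 with starved vehicle. Peaks inside the polarity gene LLGL2, the transcription factor gene POU2F3 and the hedgehog acyltransferase gene HHAT averaged 48.8, 44.9 and 44.8 CPM with complete vehicle. With estradiol they averaged 19.5, 20.1 and 24.8 CPM, and with starved vehicle 17.1, 18.9 and 21.8.

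**Figure D3:**
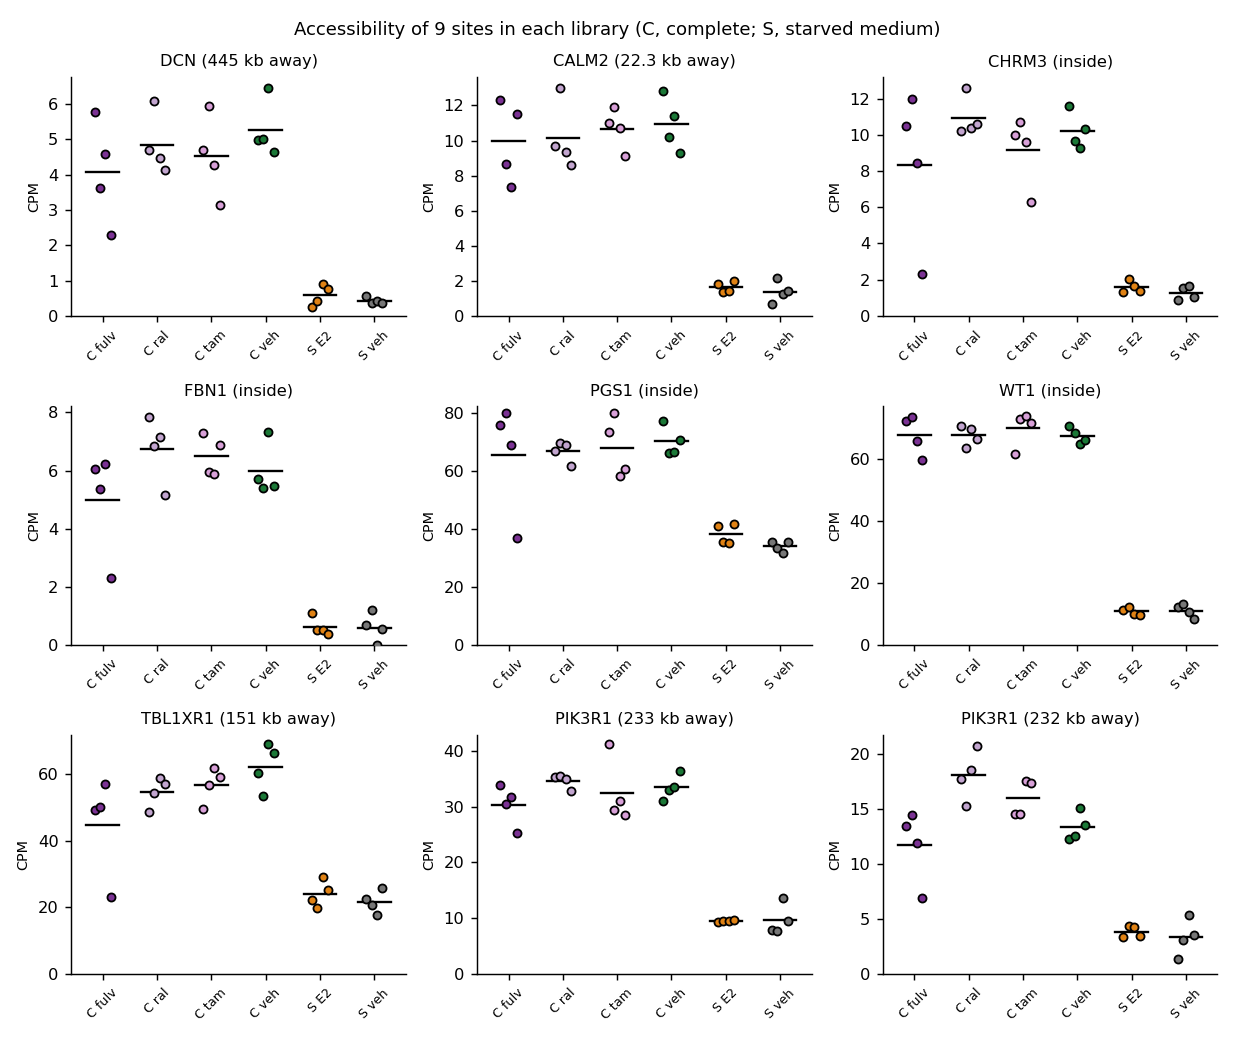
CPM of 9 unrestored sites in each library (points) with the group mean (line), named by the nearest gene; C, complete medium with fulvestrant, raloxifene, tamoxifen or vehicle, S, starved medium with estradiol (E2) or vehicle. The estradiol and vehicle points of starved cells overlap at each site, and the complete-medium points lie above them except where a single library, fulvestrant replicate 4, falls to the starved level (PGS1 and TBL1XR1).

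In the edgeR fit over all 24 libraries, all 627 sites passed the filter on low counts, and 156745 peaks were tested. Complete vehicle over starved vehicle was called higher at 624 of the 627 and lower at 0 (background 7.93% of tested peaks higher and 9.92% lower). Complete vehicle over starved estradiol was called higher at 626 and lower at 0 (background 7.25% higher and 9.41% lower). The rule used the first contrast, and with its limit on estradiol it largely sets the second, so these counts are descriptions only. With estradiol, edgeR called 0 of the 627 (background 0.835%, of which 0.813% higher and 0.0223% lower). Unadjusted, 2 sites had p under 0.05, and none was called by DESeq2 (0 sites). The rule kept only sites with a small estradiol ratio in these same libraries, so these counts follow from the choice, and nothing is read from them or from the intervals below. The median SE of the estradiol log2 fold change was 0.291. The 95% interval lay below a log2 of 1 at 595 sites, within 1 of 0 at 577 and within 0.5 of 0 at 90. At the other 32 sites the interval reached 1 or more, which shows how wide the intervals are at this depth.

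On average, the antagonist libraries read above the starved level at nearly all sites. Their mean exceeded starved vehicle at 623 of the 627 sites (edgeR adjusted p under 0.05, background 10.4%) and was lower at 0 (background 13.8%), with a median log2 difference of 1.27 against 0.018 over all tested peaks. It exceeded starved estradiol at 621 sites (background 10.2%) and was lower at 0 (background 13.9%), with a median of 1.24 against 0.015. The starved libraries took part in the choice and the antagonist libraries did not, so these counts are larger than an unselected set would give. Restored sites exceeded starved vehicle at 432 of 433 and starved estradiol at 157 (36.3%), with medians of 1.93 and 0.18, and were lower than starved estradiol at 57 (13.2%). Without any model, all 4 raloxifene libraries lay above all 4 starved vehicle libraries at 571 sites (91.1%, background 12.7% of peaks of at least 4 CPM). The same held for tamoxifen at 545 (86.9%, background 12%) and for fulvestrant at 381 (60.8%, background 6.44%). All 12 antagonist libraries did so at 340 sites (54.2%, background 3.71%), and the 11 without the shallow fulvestrant replicate 4 at 503 (80.2%, background 6.84%). Above all 8 starved libraries, estradiol included, lay all 4 fulvestrant libraries at 350 sites (55.8%, background 3.84%), raloxifene at 548 (87.4%, background 7.67%) and tamoxifen at 513 (81.8%, background 7.18%). All 12 antagonist libraries did so at 300 sites (47.8%, background 1.91%) and the 11 at 464 (74%, background 3.76%), against 32 (7.39%) and 60 (13.9%) of the 433 restored sites, which estradiol had raised by their own rule.

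After 1 h of an antagonist no unrestored site passed the threshold, and at most 1 of all tested peaks did so with any antagonist. Nothing particular to the unrestored sites is read from this. In edgeR 0 of the 627 were called with fulvestrant (background 0%), 0 with raloxifene (background 0.000638%, 1 peak, which is a restored site) and 0 with tamoxifen (background 0%). Before adjustment 43, 27 and 30 sites had p under 0.05, of which 36, 22 and 30 were lower. These were 6.86, 4.31 and 4.78% of the sites, against 3.96, 3.81 and 4.14% of all tested peaks. DESeq2 gave 0 calls for each antagonist. The median log2 fold change against complete vehicle was -0.073 with fulvestrant, -0.048 with raloxifene and -0.08 with tamoxifen, while the medians over all tested peaks were -0.0097, -0.00019 and 0.0023. Because a high value in these vehicle libraries was a condition of the choice, any other group tends to read lower, and the sign of these medians is not a result. The 95% intervals lay within 1 of 0 at 603, 615 and 610 sites with fulvestrant, raloxifene and tamoxifen, and within 0.5 of 0 at 239, 333 and 318.

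With fulvestrant the value depended on the replicates. Its median was -0.026 in replicates 1 and 2 alone and -0.27 in replicates 3 and 4 alone, which include the shallow library and the vehicle libraries with conflicting labels. For raloxifene the medians of the 2 subsets were -0.032 and -0.062, and for tamoxifen -0.051 and -0.12. No label says that these pairs of replicates form a batch. In the fit of all other libraries, the fulvestrant median was -0.056 without fulvestrant replicate 4 and -0.045 without fulvestrant replicate 3. Without fulvestrant replicate 1 it was -0.106, and without fulvestrant replicate 2 it was -0.115. It was -0.082 without the vehicle libraries with conflicting labels. Why the fulvestrant value differed between the pairs of replicates was not tested. The restored sites, for which the same condition on vehicle held, had medians of -0.22 with fulvestrant, -0.0048 with raloxifene and -0.09 with tamoxifen. In replicates 1 and 2 the fulvestrant median of the restored sites was -0.12, and in replicates 3 and 4 it was -0.69.

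**Figure D4:**
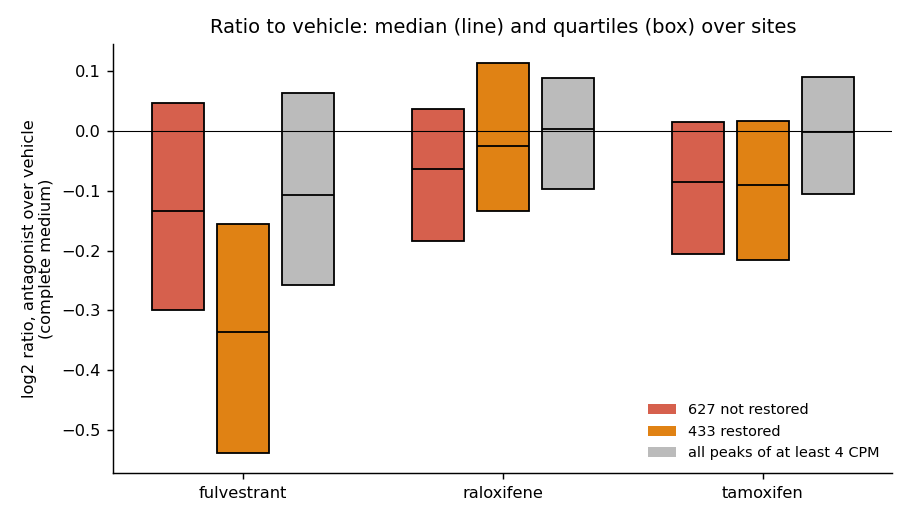
Log2 ratio of group mean CPM (0.5 added) of each antagonist over complete-medium vehicle; boxes span the quartiles over sites and the line is the median, for 627 unrestored sites, 433 restored sites and all peaks of at least 4 CPM. The fulvestrant medians (-0.13, -0.34 and -0.11) weigh the shallow replicate 4 like the others and so lie lower than the fitted values in the text.

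Comparisons between the antagonists used no library of the rule. In edgeR 0 of the 627 sites were called between fulvestrant and raloxifene (background 0.000638%, 1 peak), 0 between fulvestrant and tamoxifen (background 0%) and 0 between raloxifene and tamoxifen (background 0%). Before adjustment 46, 30 and 18 sites had p under 0.05 in these 3 pairs. These were 7.34, 4.78 and 2.87% of the sites, against 5.17, 5.28 and 3.92% of all tested peaks. DESeq2 gave 0 calls for each pair. The medians of the log2 difference were -0.027 for fulvestrant minus raloxifene, 0.014 for fulvestrant minus tamoxifen and 0.024 for raloxifene minus tamoxifen. The 95% intervals lay within 1 of 0 at 604, 605 and 617 sites and within 0.5 at 250, 219 and 314. Differences of 2-fold were thus bounded at most sites, and smaller ones at fewer. Within replicates 3 and 4 the medians were -0.19, -0.14 and 0.049, against 0.018, 0.021 and 0.0061 within replicates 1 and 2.

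None of the sites with the smallest p between antagonists passed the threshold after adjustment. Inside PHACTR1, which encodes a regulator of actin and protein phosphatase 1, fulvestrant libraries stood at 5.06, 6.78, 4.4 and 6.9 CPM and raloxifene libraries at 7.83, 8.22, 9.59 and 10.6 CPM, a log2 difference of -0.74 (SE 0.2, edgeR adjusted p = 0.964). The groups did not overlap there. Inside the transcription factor gene NFIX, fulvestrant libraries stood at 8.26, 7.95, 8.44 and 18.4 CPM and tamoxifen libraries at 4.46, 8.33, 2.27 and 4.05 CPM, a difference of 0.82 (SE 0.239, edgeR adjusted p = 0.934). Inside DERA, the gene of deoxyribose-phosphate aldolase, raloxifene libraries stood at 16.9, 16.4, 22.3 and 20.2 CPM and tamoxifen libraries at 18.6, 25.4, 23.9 and 28.2 CPM, a difference of -0.35 (SE 0.125, edgeR adjusted p = 1). At the last 2 sites the groups overlapped. The other sites with the smallest p lay 1120 kb from GATA3, 232 kb from PIK3R1, 746 kb from NR2F1 and inside MORN3, AGBL1, HHIPL1, STARD13, TLE3, HYAL4 and BANK1.

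The unrestored sites were rarely at promoters. On chromosomes with promoter windows, 12 of 588 (2.04%) overlapped one, against 7 of 413 restored sites (1.69%), 19.5% of all peaks of at least 4 CPM and 7.15% of all peaks. Protein-coding starts accounted for 7 of the 12 (1.19%) and for 0 of the restored sites. Inside a protein-coding gene lay 317 of the 627 (50.6%), against 48.7% of restored sites and 48.3% of peaks of at least 4 CPM. More than 100 kb from any protein-coding gene lay 99 (15.8%), against 16.2% and 8.74%, while the share over all peaks was 16%. The median width was 251 bp, against 261 bp in restored sites and 235 bp in peaks of at least 4 CPM. In position, then, unrestored and restored sites had like shares, and both had fewer promoters than other peaks of that level. These shares were described without a test.

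**Figure D5:**
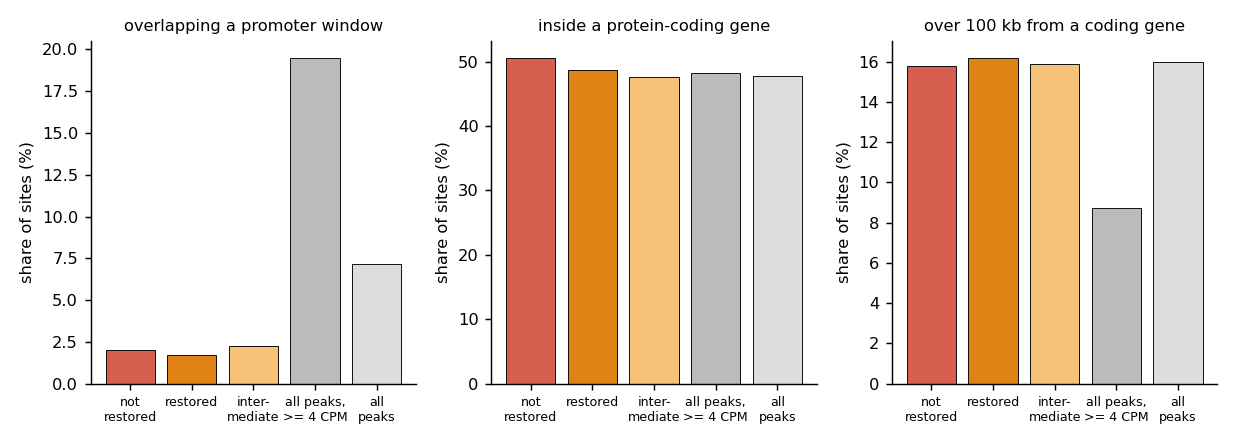
Share of sites (%) that overlap a RefSeq promoter window (chromosomes with windows only), that lie inside a protein-coding gene, or that lie over 100 kb from one, for 627 unrestored, 433 restored and 790 intermediate sites, all peaks of at least 4 CPM in complete vehicle, and all peaks. Promoter shares are 2.04% for unrestored and 1.69% for restored sites, against 19.5% for all peaks of at least 4 CPM.

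Most of the sites had no other unrestored site within 20 kb, and restored sites were more often grouped. Another unrestored site lay within 20 kb of 63 (10.05%), whereas another restored site lay that near to 103 of the 433 restored sites (23.79%). The share that as many peaks drawn from all peaks would give was not computed. There were 5 groups of at least 3 unrestored sites. The largest by level held 5 sites over 16.03 kb of chromosome 5 (68533490 to 68549523), 232 to 248 kb from PIK3R1, the gene of the regulatory subunit of PI3-kinase. Its strongest peak stood at 33.8, 30.4, 31.8 and 25.3 CPM with fulvestrant, 35.3, 35.5, 35 and 32.8 with raloxifene, 41.2, 29.4, 31 and 28.5 with tamoxifen and 31, 32.9, 33.5 and 36.4 with vehicle in complete medium, against 9.23, 9.48, 9.39 and 9.57 with estradiol and 7.77, 7.74, 13.6 and 9.44 with vehicle in starved medium. The 4 estradiol libraries fell inside the range of the starved vehicle libraries. Of 12 other tested peaks within 50 kb, 4 are themselves unrestored sites, chosen as higher in complete medium. Of the same 12, 7 were called higher in complete medium, 1 was called higher with estradiol and 1 was a restored site, so both kinds of site occurred in the same stretch.

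A group of 3 sites spanned 0.88 kb inside ROR2, the gene of a receptor for Wnt ligands (chromosome 9, 91796942 to 91797822). Their means were 11.9, 10.8 and 4.99 CPM with fulvestrant, 12, 10.4 and 7.88 with raloxifene, 13.7, 10.4 and 6.53 with tamoxifen and 14.2, 10.6 and 6.28 with vehicle in complete medium. With estradiol they were 4.49, 3.45 and 2.3 CPM, and with starved vehicle 4.01, 3.62 and 2.11. The mean of the antagonists exceeded starved vehicle by 1.78, 1.72 and 1.79 on the log2 scale (SE 0.171, 0.183 and 0.222). Another 5 sites lay within 5.091 kb of the short arm of chromosome 21 (9000540 to 9005631), 354.5 to 359.2 kb from LOC101927345. That arm is rich in near-identical copies, so reads there may be split between copies and these sites are uncertain. The strongest of them averaged 21.6 ± 2.26 CPM with complete vehicle, 9.44 ± 3.27 with estradiol and 10 ± 1.49 with starved vehicle, and 17 of 32 other tested peaks within 50 kb were higher in complete medium, where 4 of the 32 are themselves unrestored sites.

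The chromatin around the sites shared part of the difference between media. Of 633 other tested peaks within 5 kb of an unrestored site, 160 (25.3%) were called by edgeR as higher with complete than with starved vehicle, against 41.8% of 524 peaks near restored sites and 7.56% of all tested peaks outside the set. Estradiol was called to raise 18 of the 633 (2.84%), against 11.3% near restored sites and 0.816% of all. Within 50 kb the shares were 15.1% for the media and 2.08% for estradiol. A restored site lay within 100 kb of 80 unrestored sites (12.8%), against 6.02% of peaks of at least 4 CPM and 4.53% of all peaks. Neighbouring peaks share the libraries of the rule, so these shares are descriptions.

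Near genes of the estrogen program, unrestored sites were few beside restored ones. Within 50 kb of 21 estrogen-induced genes lay 541 peaks, of which 5 (0.924%) were unrestored and 20 (3.7%) restored, while unrestored sites were 0.331% and restored ones 0.229% of all peaks. Inside GREB1, a receptor cofactor and a classic target, the unrestored site (chromosome 2, 11554167 to 11554374) stood at 7.81, 6.31, 8.08 and 0 CPM with fulvestrant, 7.73, 9.07, 7.81 and 8.36 with raloxifene, 7.93, 9.81, 8.68 and 7.5 with tamoxifen and 7.69, 7.08, 9.78 and 10.1 with vehicle in complete medium, against 4.56, 3.19, 5.44 and 3.78 with estradiol and 2.66, 4.52, 4.54 and 3.09 with vehicle in starved medium. The value of 0 is from the shallow library, where a count of 0 allows up to 6.9 CPM, and the other 15 complete-medium libraries lay above all 8 starved ones. Of 33 other tested peaks within 50 kb of it, 8 were called higher with estradiol and 5 were restored sites. A site unrestored by the rule thus lay among restored ones. In the fit, however, the estradiol log2 fold change of this GREB1 site was 0.315 (SE 0.25), above the rule's limit of 0.25. A moderate rise with estradiol is not excluded there. The site 10.9 kb from the cyclin gene CCND1 averaged 4.35 ± 0.378 CPM with complete vehicle, 1.81 ± 0.59 with estradiol and 1.8 ± 0.818 with starved vehicle. Inside the kinase gene SGK3 the values were 4.36 ± 1.34, 1.59 ± 0.819 and 1.55 ± 0.561 CPM. There the antagonists exceeded starved vehicle by 1.09 (SE 0.337, edgeR adjusted p = 0.0133), a call lost without fulvestrant replicate 1 (edgeR adjusted p = 0.0518) or starved vehicle replicate 1 (0.105), and its sign turned within replicates 3 and 4 (-0.061).

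At PDZK1, whose window is printed above, the site stood at 12.8, 11.8, 12.8 and 16.1 CPM with fulvestrant, 15, 11.2, 13.6 and 16.2 with raloxifene, 13.4, 10.1, 10.5 and 12 with tamoxifen and 13.1, 11.7, 13.7 and 15.3 with vehicle in complete medium, against 1.44, 4.53, 4.28 and 3.53 with estradiol and 3.66, 3.57, 4.54 and 4.32 with vehicle in starved medium. All complete-medium libraries lay above all starved ones, and 3 of the 4 estradiol libraries lay within or just below the range of starved vehicle. Of 12 other tested peaks within 50 kb, 1 was called higher with estradiol.

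Genes that answer to other hormones of serum had unrestored sites in small numbers. Around 20 glucocorticoid, progestin and androgen responsive genes, 5 of 376 peaks (1.33%) were unrestored and 2 (0.532%) restored. Over all peaks the shares were 0.331% and 0.229%, which is the background for the lists below too. All peaks include those under 4 CPM, which could not be chosen. Peaks near listed genes were not matched by level, and no test was made. The 5 lay near KLF9 (a Krüppel-like factor), MT2A (a metallothionein), TAT (tyrosine aminotransferase), HSD11B2 (the enzyme that turns cortisol into cortisone) and BCL6 (a transcriptional repressor). The site 35.9 kb from BCL6 stood at 10.5, 11.5, 9.73 and 20.7 CPM with fulvestrant, 11, 10.1, 12.7 and 7.85 with raloxifene, 6.69, 9.67, 12.6 and 8.31 with tamoxifen and 9.56, 10, 10.9 and 9.69 with vehicle in complete medium, against 2.64, 3.81, 3.38 and 3.15 with estradiol and 3.88, 2.26, 3.71 and 3.62 with vehicle in starved medium. The groups of the 2 media did not overlap there, and the antagonists exceeded starved vehicle by 1.61 (SE 0.184, edgeR adjusted p = 3.98e-11). The site 6.25 kb from KLF9 averaged 5.33 ± 0.211 CPM with complete vehicle, 2.12 ± 0.543 with estradiol and 1.72 ± 0.367 with starved vehicle, and that 0.981 kb from MT2A averaged 6.86 ± 1.45, 3.15 ± 0.386 and 3.12 ± 0.871 CPM.

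Around 13 retinoid responsive genes, 3 of 295 peaks (1.02%, against 0.331% of all peaks) were unrestored and 1 was restored. These lay inside CYP26B1, which encodes a retinoic acid hydroxylase (5.05 CPM with complete vehicle, 2.41 with estradiol, 2.17 with starved vehicle), 2 kb from the retinoic acid binding protein gene CRABP2 (13.3, 6.61 and 6.21 CPM) and 12.4 kb from PLAAT4 (56, 27.2 and 26.6 CPM). Around genes responsive to thyroid hormone, vitamin D or liver X receptors the count was 0 of 276 peaks. Around aryl hydrocarbon receptor targets it was 1 of 120, near ALDH3A1.

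Around 12 replication and cell cycle genes, 3 of 189 peaks (1.59%, against 0.331% of all peaks) were unrestored and 2 restored. The 3 lay near CDT1 (a replication licensing factor), TOP2A (DNA topoisomerase II) and CCNE1 (cyclin E1). The site 5.46 kb from TOP2A, which also lies 20.1 kb from IGFBP4, stood at 22.1, 26.1, 20.2 and 18.4 CPM with fulvestrant, 23.3, 19.2, 21.5 and 22.1 with raloxifene, 23.6, 27.2, 20.8 and 20.9 with tamoxifen and 22.4, 19.4, 22.9 and 19.5 with vehicle in complete medium, against 9.71, 9.58, 10.8 and 8.94 with estradiol and 7.1, 9.76, 9.91 and 9.97 with vehicle in starved medium. No library of one medium reached the range of the other. The site near CDT1 averaged 4.52 ± 0.689 CPM with complete vehicle, 1.74 ± 0.347 with estradiol and 1.95 ± 0.503 with starved vehicle. Its antagonist difference of 0.8 (SE 0.243, edgeR adjusted p = 0.00974) lost the call without starved vehicle replicate 2 (edgeR adjusted p = 0.0721) or 4 (0.055), within replicates 1 and 2 (0.123) and within replicates 3 and 4 (0.0943).

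Luminal identity genes had 4 unrestored and 6 restored sites among 601 peaks (0.666% and 0.998%, against 0.331% and 0.229% of all peaks). The unrestored ones lay near GRHL2 (an epithelial transcription factor) and MLPH (melanophilin). The site inside MLPH (chromosome 2, 237547370 to 237547607) stood at 14.9, 20.8, 18 and 9.2 CPM with fulvestrant, 18.3, 16.5, 22 and 21 with raloxifene, 15.2, 20.2, 20.2 and 22 with tamoxifen and 22.8, 14.8, 20.1 and 20.8 with vehicle in complete medium, against 4.44, 5.15, 5.6 and 5.54 with estradiol and 4.44, 5.24, 3.3 and 5.65 with vehicle in starved medium. All 16 complete-medium libraries lay above all 8 starved ones. AP-1, EGR and serum response genes had 1 of 319 peaks (near FOSL2), growth factor signalling genes 1 of 485 (inside ERBB4), Hippo pathway genes 1 of 226 (inside WWC1) and basal and mesenchymal genes 1 of 183 (near TP63). There were 0 near mammary progenitor genes (of 154 peaks), sterol and fatty acid synthesis genes (196), interferon-stimulated genes (130), housekeeping genes (199) and blood cell genes (81). Summed over lists these were 25 within 50 kb and 13 within 10 kb, with the site near TOP2A and IGFBP4 counted in 2 lists at 50 kb.

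The promoter sites themselves differed in level. At TNK2 the site stood at 28.9, 30.9, 22.8 and 36.8 CPM with fulvestrant, 27.6, 30.3, 28.4 and 25.7 with raloxifene, 22.7, 26.8, 25.1 and 28 with tamoxifen and 25.4, 28.7, 27.5 and 27.1 with vehicle in complete medium, against 12.3, 11.4, 17.3 and 18.4 with estradiol and 10.1, 10.8, 16.1 and 14.1 with vehicle in starved medium. All complete-medium libraries lay above all starved ones. At UHRF1, where the peak also lies inside the interval of ARRDC5, it averaged 6.25 ± 1.15 CPM with fulvestrant, 7.64 ± 1.64 with raloxifene, 6.93 ± 0.803 with tamoxifen and 7.9 ± 0.74 with complete vehicle, against 3.62 ± 0.805 with estradiol and 3.21 ± 0.783 with starved vehicle. At SPATA12 it averaged 5.37, 4.14, 3.58 and 4.71 CPM in the same 4 complete-medium groups, against 1.7 with estradiol and 1.78 with starved vehicle. At CXCL8 it stood at 5.15, 7.01, 1.84 and 6.9 CPM with fulvestrant, 5.38, 6.3, 5.8 and 2.96 with raloxifene, 3.84, 5.65, 6.41 and 4.66 with tamoxifen and 7.69, 5.92, 5.38 and 6.74 with vehicle in complete medium, against 3, 2.68, 2.22 and 1.89 with estradiol and 2.66, 2.98, 2.48 and 2.65 with vehicle in starved medium. Here fulvestrant replicate 3 and raloxifene replicate 4 did not exceed the highest starved library. The antagonists exceeded starved vehicle by 0.91 (SE 0.23, edgeR adjusted p = 0.00149), a call lost within replicates 3 and 4 (0.49, adjusted p = 0.482). The SARM1 and HYAL1 promoter sites averaged 9.07 and 6.49 CPM with complete vehicle, 3.38 and 3.09 with estradiol and 4.08 and 2.71 with starved vehicle. These promoter sites were chosen after their values were seen.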

How the data were processed

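ATAC-seq libraries of T47D cells (24, in 6 groups of 4) were read from the deposited table of counts per peak, whole numbers that the authors made for 189403 peaks of 200 to 958 bp. Per the submitters' processing notes, cutadapt 1.8.1, Bowtie2 2.4.4, SAMtools 1.9 and the build hg38 were used. The peak caller, the counting tool, the treatment of duplicates and any shift for Tn5 were not given in the sources used here. If duplicates were kept, PCR copies would narrow the intervals, and reads carry no molecular identifiers.

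CPM values were computed from each library's total over all peaks (434598 to 12140005 counts). Groups followed titles. Comparisons used edgeR 4.0.16 (R 4.3.3) on counts of all 24 libraries in one quasi-likelihood fit by group, with TMM scaling, filterByExpr (minimum count 10, minimum total 15) and Benjamini-Hochberg adjustment over 156745 peaks at 0.05; standard errors of log2 fold changes are approximate. The fit weighs libraries by depth, whereas means of CPM do not. The procedure was tested on simulated data. DESeq2 1.42.0, other thresholds, pseudocounts and scaling, the replicate number as a block, replicates 1 and 2 or 3 and 4 alone, and leaving out each library of the groups compared were alternatives. A held-out pseudocount of 1 and the count over 11 antagonist libraries were added after seeing the data. Replicate numbers were not taken to pair libraries, since 5 of 32 correlations of same-numbered deviations exceeded 0.1 (range -0.128 to 0.126). In 15 of the 32, however, the same-numbered library was the best correlated of the 4, so some pairing is possible. The replicate number as a block was therefore an alternative. In all 36 pairs of libraries within groups, counts differed by more than sampling noise.

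Sites, gene lists (16 lists, 212 entries, all matched) and tests were chosen with earlier results of these data known. Peaks named are the 10 of largest media ratio, the 10 of highest level, up to 4 in each of the 3 densest groups, the highest near each listed gene, the 5 of smallest p per pair of antagonists and those beside the thresholds; promoter sites were chosen after their values were seen. Genes and promoter windows are those of RefSeq on GRCh38.p14 (19974 protein-coding genes, 35116 windows), and distances run to the gene interval.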

Additional observations from a re-analysis of the deposited data

Results flagged for a closer look

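Over the 6 groups, the share of counts in all sites and the values of 26 single sites gave 162 sets of 4 libraries, of which 8 held a library whose gap to its nearest neighbour exceeded Dixon's 95% critical share of the group's range; chance alone gives about 1 in 20 sets. In complete medium these were fulvestrant replicate 3 at ROR2 (9.18 CPM), fulvestrant replicate 4 near BCL6 (20.7 CPM) and in NFIX (18.4 CPM), raloxifene replicate 2 in CHRM3 (12.6 CPM), raloxifene replicate 4 near CDKN3 (42.7 CPM) and vehicle replicate 3 in FBN1 (7.33 CPM). In starved vehicle cells they were replicate 1 near TOP2A (7.1 CPM) and replicate 2 near BCL6 (2.26 CPM). Fulvestrant replicate 4 is the shallowest library, with 434598 counts.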

How the results depend on the processing

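The number of sites followed the thresholds: 407 with an estradiol limit of 0.15, 1077 with 0.5, 284 with a minimum of 8 CPM and 109 with a minimum media ratio of 1.5 (log2). It was 504 with a pseudocount of 1 (449 shared), 692 with TMM-scaled totals (611 shared), and 573 to 724 when single libraries were left out. With gaps of up to 50 kb, 96 sites had a neighbour, and 13 lay within 10 kb of a listed gene. Leaving out single libraries of the groups compared gave 620 to 623 sites higher in complete than in starved vehicle, 614 to 626 in complete vehicle than in estradiol, 608 to 624 with antagonists than in starved vehicle and 610 to 623 than in estradiol, while counts of 0 stayed 0. With the replicate number as a block these were 627, 627, 625 and 623, and no other comparison called a site. Of 2734 alternatives for single sites, 2707 kept direction and call, 26 lost the call, and 1 reversed: in SGK3, antagonists minus starved vehicle was -0.0613 within replicates 3 and 4, against 1.09; the cause was not tested. Held-out media medians with a pseudocount of 1, added after seeing the data, were 1.12, 1.14, 1.01 and 1.08. Depth limits fulvestrant replicate 4 most, where 91 sites had no count.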
